A study of Mus musculus with 20 samples.

Results

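The p53 response genes followed here were Trp53, Mdm2, Ccng1, Cdkn1a, Btg2, Perp, Zmat3, Trp53inp1, Sesn1 and Phlda3. They were taken by symbol from a table of 16014 named genes, and all 10 were present in it. The study injected wild-type mouse zygotes (strain F1 C57BL/6Jx129S1/SvlmJ) with a miRCURY LNA mimic of the microRNA let-7f-5p or with vehicle, and sequenced rRNA-depleted total RNA of the blastocysts that grew from them. The groups were Str let-7f (8 pools; the mimic at a concentration modelled on the level that stress brings about in sperm), 2x Str let-7f (5 pools; the mimic at the doubled, supraphysiological concentration) and vehicle (7 pools; the nuclease-free water used to dissolve the mimic). Every library came from 10 pooled embryos cultured under 5% O2, so values are averages over embryos and over the lineages of the blastocyst. No group received an unrelated mimic, and an effect of the let-7f sequence and an effect of injecting a small RNA cannot be told apart.

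p53, encoded by Trp53, is a transcription factor that is held at a low level by Mdm2, the ubiquitin ligase that marks it for destruction. When DNA damage or another stress frees p53 from Mdm2, it binds paired half-sites near its target genes, and the targets slow the cell cycle, favour repair or lead to cell death. Much of that control acts on the protein, so the level of Trp53 mRNA is a poor guide to p53 activity, and Mdm2 is itself a target that closes a feedback loop. Mouse embryos without Mdm2 die around implantation, and removing Trp53 as well rescues them.

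The sequences that bear on these genes are the mimic and the candidate p53 sites of their promoters. The mimic was identical to the mature mouse let-7f-5p of RefSeq, and the capitals mark its seed (bases 2 to 8), which pairs with target mRNAs.
let-7f-5p mimic: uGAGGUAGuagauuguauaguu
The DNA match to bases 2 to 8 of the mimic, CTACCTC, was absent from the longest 3′ untranslated region annotated (GENCODE M21) in all 10 genes, while 11.1% of 13155 tested genes with such an annotation held it. The shorter match TACCTCA, which pairs with bases 2 to 7 and ends in an A, occurred once in Ccng1 and once in Btg2, and one or both forms occurred in 17.6% of those genes. Lin28a, a known let-7 target, held 2 copies of the full match CTACCTCA, which contains both shorter forms and was present in 3.77% of the genes. Capitals mark the match.
Ccng1 (chromosome 11): acatatgcacaTACCTCAccaccccccgc
Btg2 (chromosome 1): aggccaccgtaTACCTCAacctggggaac
Lin28a (chromosome 4): agcctgttgaaCTACCTCAtttttgccgat

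RefSeq windows of 300 bases around a transcription start (build GRCm38.p6, 250 bases before and 50 after) were at hand for 7 of the 10 genes, in 9 windows. The p53 consensus half-site, a pattern of 10 bases that is the same on both strands, was searched in them. At least 1 exact half-site was found in 1 window each of Ccng1, Cdkn1a, Mdm2, Sesn1 and Trp53 and in 8.36% of all 32851 windows. Pairs of half-sites were also searched, no more than 13 bases apart and with no more than 2 bases off the consensus in total. Each half-site of a pair had to keep the core C and G of the consensus. Such a pair stood in windows of Ccng1, Cdkn1a and Sesn1, and in 4.09% of all windows. The windows of Btg2 and Phlda3 held neither, which says only that these letters are not in these 300 bases. Cdkn1a also held a pair of exact half-sites 12 bases apart that overlaps the pair shown. Ccng1 and Sesn1 each held a further overlapping pair, 2 bases off, with its half-sites 5 bases apart. Capitals mark half-sites, and each stretch is written along the strand of its gene.
Ccng1, chr11:40755462-40755481 (minus strand), 1 base off: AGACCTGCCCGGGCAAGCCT
Cdkn1a, chr17:29090928-29090947 (plus strand), 1 base off: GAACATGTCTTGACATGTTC
Sesn1, chr10:41887253-41887275 (plus strand), 2 bases off: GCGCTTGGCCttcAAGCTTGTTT
Mdm2, chr10:117710935-117710944 (minus strand, 10 bases either side), single exact half-site: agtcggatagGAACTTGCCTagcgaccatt
Trp53, chr11:69580284-69580293 (plus strand, 10 bases either side), single exact half-site: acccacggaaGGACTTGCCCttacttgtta
A match is a description of letters and does not show that p53 was bound there in these embryos.

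Libraries held 1.54 to 58.8 M reads (1.54 to 58.8 M in Str let-7f, 1.94 to 27.2 M in 2x Str let-7f, 3.30 to 46.6 M in vehicle), and every one of the 10 genes had at least 35 reads in each library. Levels are given as normalized counts, which are reads divided by a size factor of the library and are not corrected for gene length, so they compare pools but not genes. Lin28a stood at 605 ± 180 normalized counts in Str let-7f pools and 723 ± 303 in 2x Str let-7f, against 1597 ± 234 in vehicle (SD, n = 8, 5 and 7). All 12 trophectoderm, all 14 primitive endoderm and 7 of 8 epiblast markers were present in the table, while 1 of 8 cumulus and granulosa markers was, at 2.27 RPM (reads per 1 M reads) or less. Primitive endoderm markers were lower with the mimic, and 10 of 14 fell in Str let-7f (0.796% of all genes fell) and 8 of 14 in 2x Str let-7f (0.664% of all genes). Their sum was 3075 to 5547 RPM in Str let-7f and 2952 to 5336 RPM in 2x Str let-7f, against 6280 to 8395 RPM in vehicle (exact permutation p = 0.000311 and 0.00253, two-sided). Trophectoderm markers summed to 7465 to 12190 RPM in Str let-7f and 8917 to 13118 RPM in 2x Str let-7f, against 8028 to 11074 RPM in vehicle (exact permutation p = 0.47 and 0.449). Of 8 oocyte markers, 6 were in the table, and 2 of the 5 tested rose in each mimic group. Among all genes, 1.84% rose with Str let-7f and 1.23% at the doubled concentration. The 6 summed to 617 to 1000 RPM in Str let-7f and 644 to 1032 RPM in 2x Str let-7f, against 390 to 709 RPM in vehicle (exact permutation p = 0.000622 and 0.00505). The 2-cell stage markers summed to 1.96 to 191 RPM in Str let-7f and 15.8 to 45.2 RPM in 2x Str let-7f, against 1.51 to 7.80 RPM in vehicle (exact permutation p = 0.0413 and 0.00253). Of the 8 tested, 1 rose in each mimic group, beside the same 1.84% and 1.23% of all genes. Zscan4c, Zscan4d, Tcstv3 and Tdpoz4 were at 0 in every vehicle pool. The part of these shifts in the results below was not tested, and in pools fewer cells of a type and less RNA per cell cannot be told apart.

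Ccng1, Perp, Cdkn1a and Btg2 rose in Str let-7f blastocysts, and 2x Str let-7f blastocysts had higher Ccng1 and Perp, while Trp53 and Mdm2 did not pass the test in either group. A gene is said to rise or fall where its limma adjusted p, over all 15068 genes tested, was under 0.05. For Str let-7f against vehicle that made 4 of 10 higher and 0 lower, beside 1.84% of all genes called higher and 2.63% called in either direction. For 2x Str let-7f against vehicle it made 2 of 10 higher and 0 lower, beside 1.23% of all genes called higher and 1.89% in either direction. The median log2 fold change of the 10 genes was 0.47 for Str let-7f, and for 2x Str let-7f it was 0.64, where the medians of all genes were -0.02 and -0.01. Both comparisons share the same 7 vehicle pools, so they are not independent of each other. The 10 genes were chosen with earlier results of these data known, so the counts and medians set beside all genes are descriptions and not a test of the set.

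**Figure D1:**
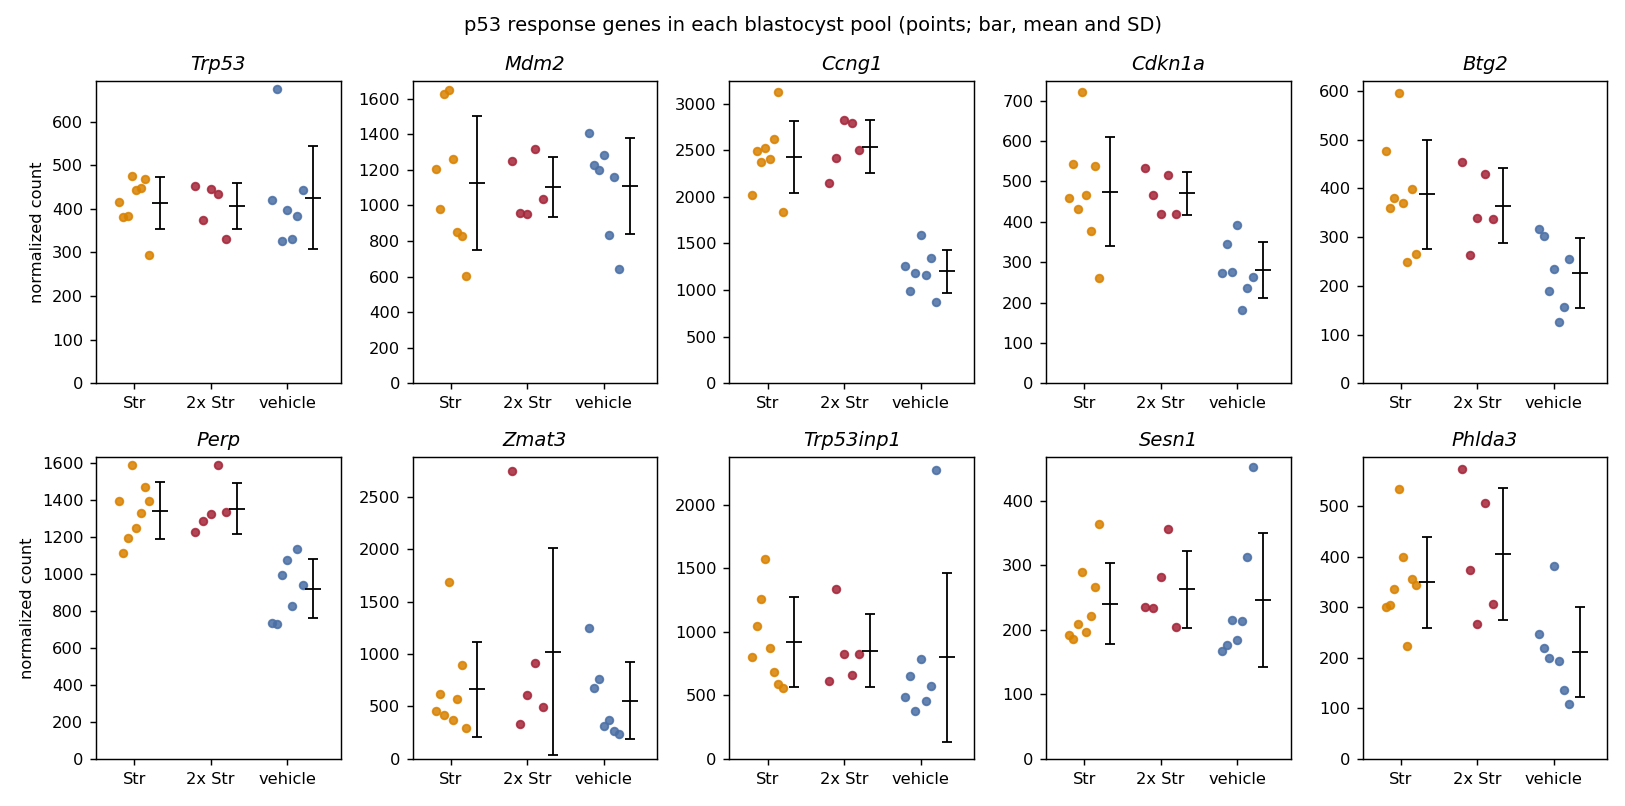
Normalized counts (y axes, from 0) of the 10 p53 response genes in each pool, with Str let-7f (n = 8), 2x Str let-7f (n = 5) and vehicle (n = 7) along the x axes; points are pools in order of replicate number, and the bar beside them gives the mean and SD. All mimic pools of Ccng1 lie above 1590, the highest vehicle pool, while the pools of Trp53, Mdm2 and Sesn1 overlap across groups.

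The gene at the head of the pathway and its inhibitor come first. Trp53 ran from 294 to 475 normalized counts in Str let-7f (median 429), and stood at 452, 373, 444, 434 and 332 in the 2x Str let-7f pools, against 327 to 674 in vehicle (median 397). The mimic pools lay within the range of vehicle apart from Str let-7f replicate 10, just below it. The log2 fold change was -0.01 ± 0.16 for Str let-7f (SE; limma adjusted p = 0.981) with a 95% interval of -0.34 to 0.31, and -0.03 ± 0.18 for 2x Str let-7f (limma adjusted p = 0.965) with an interval of -0.40 to 0.33. The highest vehicle value was that of replicate 2, and the next stood at 444.

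Mdm2 ran from 603 to 1647 normalized counts in Str let-7f (median 1094), and stood at 1250, 957.5, 950.3, 1317 and 1038 in the 2x Str let-7f pools, against 644 to 1409 in vehicle (median 1200.5). Str let-7f pools reached both above and below the vehicle range, 2 above and 1 below. Its log2 fold change was -0.01 ± 0.20 for Str let-7f (limma adjusted p = 0.99; interval -0.42 to 0.40) and 0.02 ± 0.23 for 2x Str let-7f (limma adjusted p = 0.982; interval -0.44 to 0.49). Mdm2 is the target through which p53 limits itself, and the sign of its difference turned under several other settings.

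Among targets that act on the cell cycle, Ccng1 moved most. It encodes cyclin G1, an early-known p53 target that takes part in the feedback between p53 and Mdm2. It ran from 1840 to 3129 normalized counts in Str let-7f (median 2448), and stood at 2148, 2419, 2826, 2794 and 2504 in the 2x Str let-7f pools, against 872 to 1590 in vehicle (median 1187). No pool of either mimic group overlapped with vehicle, a separation upwards that 0.617% of all genes showed for Str let-7f, and 1.36% for 2x Str let-7f. The log2 fold change was 1.02 ± 0.12 in Str let-7f (limma adjusted p = 3.1e-05) and 1.10 ± 0.14 in 2x Str let-7f (limma adjusted p = 8.45e-05), or 2.03-fold and 2.14-fold. Leaving out any of the 15 or 12 libraries kept the call in each case, with a highest limma adjusted p of 0.000152 and 0.00064.

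Cdkn1a encodes p21, the inhibitor of cyclin-dependent kinases through which p53 holds cells before S phase. It ran from 261 to 722 normalized counts in Str let-7f (median 463), and stood at 534.0, 465.9, 418.5, 516.5 and 418.8 in the 2x Str let-7f pools, against 182 to 392 in vehicle (median 273). All 5 pools of 2x Str let-7f lay above every vehicle pool, as they did for 1.36% of all genes, and 6 of 8 pools of Str let-7f did. Its log2 fold change was 0.74 ± 0.19 in Str let-7f (limma adjusted p = 0.0324) and 0.77 ± 0.21 in 2x Str let-7f, which did not pass (limma adjusted p = 0.0613). The Str let-7f call was lost when 1 of 9 libraries was left out (5 vehicle pools, replicates 1, 3, 6, 7 and 8, with 4 pools of Str let-7f, replicates 2, 5, 6 and 9; up to an adjusted p of 0.0777 by limma, without vehicle replicate 6) and in the libraries over 5 M reads (0.219). It was also lost with only the 2 groups in the fit (limma adjusted p = 0.0652) and without the 2 libraries under 2 M reads (0.0653). The 2x Str let-7f difference passed without vehicle replicate 5 (limma adjusted p = 0.042), the vehicle pool with the highest level, and under DESeq2 (adjusted p = 0.0264).

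Btg2, an antiproliferative gene whose product works with the mRNA deadenylase complex, ran from 249.7 to 597 normalized counts in Str let-7f (median 376). It stood at 454, 263, 339, 429 and 337 in the 2x Str let-7f pools, against 126 to 317 in vehicle (median 234). In Str let-7f 6 of 8 pools, and in 2x Str let-7f 4 of 5, lay above every vehicle pool. On the log2 scale the difference was 0.79 ± 0.22 in Str let-7f (limma adjusted p = 0.0498), which barely passed, and 0.73 ± 0.25 in 2x Str let-7f, which did not (limma adjusted p = 0.155). The Str let-7f call did not hold without 1 of 11 libraries (vehicle replicate 3, 5, 6, 7 or 8, or Str let-7f replicate 1, 2, 3, 5, 6 or 9; highest limma adjusted p = 0.114, without vehicle replicate 6), nor under 9 of 13 other settings (adjusted p up to 0.187).

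**Figure D2:**
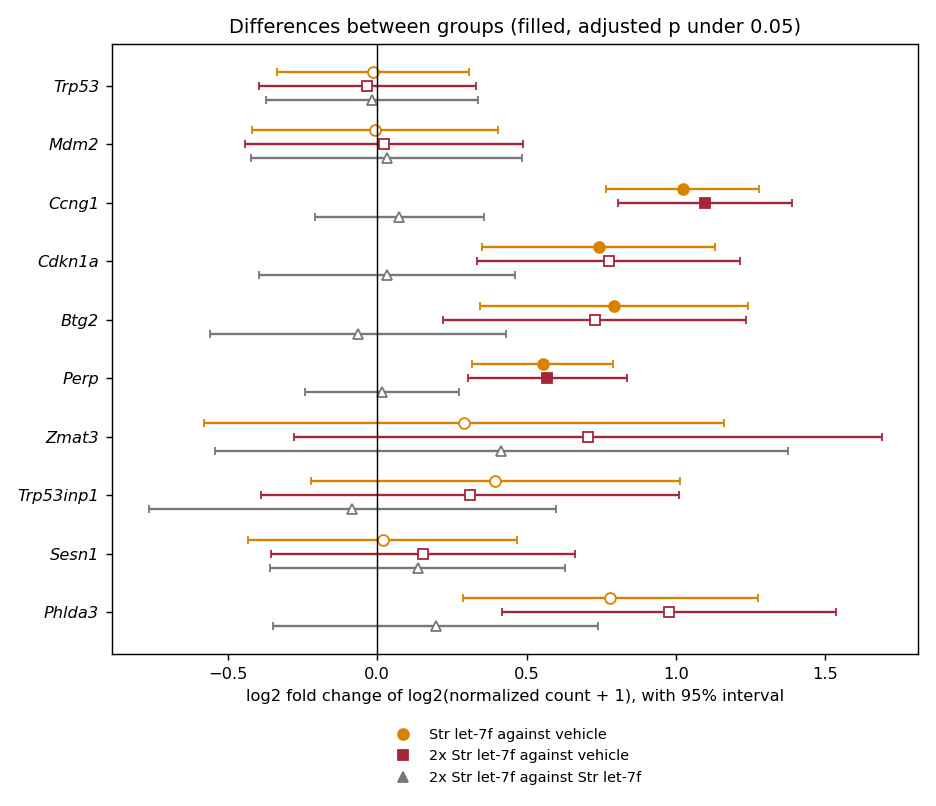
Log2 fold changes on the log2(normalized count + 1) scale (x axis) for each of the 10 genes (y axis), with 95% intervals from limma, for Str let-7f against vehicle (circles), 2x Str let-7f against vehicle (squares) and the doubled over the single concentration (triangles); filled symbols passed at an adjusted p under 0.05. Ccng1 and Perp are filled in both comparisons with vehicle, Cdkn1a and Btg2 in Str let-7f against vehicle, and no triangle is filled.

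Among targets linked to cell death, Perp rose in both mimic groups. It encodes a membrane protein of desmosomes that is also a p53 effector of apoptosis. It ran from 1113 to 1592 normalized counts in Str let-7f (median 1361), and stood at 1230, 1289.5, 1327, 1591 and 1335 in the 2x Str let-7f pools, against 732 to 1138 in vehicle (median 940). All 5 pools of 2x Str let-7f (as for 1.36% of all genes) and 7 of 8 pools of Str let-7f lay above every vehicle pool. The difference on the log2 scale was 0.55 ± 0.11 in Str let-7f (limma adjusted p = 0.00773) and 0.57 ± 0.13 in 2x Str let-7f (limma adjusted p = 0.0206), the narrowest intervals among the 10 genes. Its Str let-7f call was kept without any of the 15 libraries but not in those over 5 M reads (limma adjusted p = 0.0636). The 2x Str let-7f call was lost without its replicate 3 (limma adjusted p = 0.0502), 4 (0.0748) or 5 (0.0512). It was also lost with only the 2 groups in the fit (0.0543), in libraries over 5 M reads (0.252) and without the 2 libraries under 2 M reads (0.0715).

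Phlda3, whose product restrains AKT signalling by competing for membrane lipids, ran from 223 to 533 normalized counts in Str let-7f (median 339). It stood at 574, 373, 268, 506 and 307 in the 2x Str let-7f pools, against 108 to 381 in vehicle (median 199). All 13 mimic pools were above the vehicle median, but only 2 of 8 and 2 of 5 were above every vehicle pool, since vehicle replicate 5 stood far above the rest. Phlda3 differed by a log2 fold change of 0.78 ± 0.24 in Str let-7f (limma adjusted p = 0.0898) and 0.98 ± 0.27 in 2x Str let-7f (limma adjusted p = 0.0632), and neither passed. Without vehicle replicate 5 both did, at limma adjusted p = 0.0269 and 0.0243, and the 2x Str let-7f difference also passed under DESeq2 (adjusted p = 0.0329).

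Zmat3 encodes an RNA-binding zinc finger protein that shapes splicing downstream of p53. It ran from 299 to 1685 normalized counts in Str let-7f (median 511), and stood at 2746, 335, 612, 919 and 499 in the 2x Str let-7f pools, against 240 to 1253 in vehicle (median 375). Str let-7f replicate 5 stood far above the other pools of its group, as did replicate 1 of 2x Str let-7f. Log2 fold changes were 0.29 ± 0.42 in Str let-7f (limma adjusted p = 0.819) and 0.70 ± 0.48 in 2x Str let-7f (limma adjusted p = 0.585), with the widest intervals of the 10 genes. Single libraries decided these values. For Str let-7f the log2 fold change was 0.067 without its replicate 5, and 0.53, 0.15 and 0.13 without vehicle replicates 1, 7 and 8. For 2x Str let-7f it was 0.24 without its replicate 1.

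Trp53inp1, whose product acts with p53 in the nucleus and in autophagy, ran from 556 to 1576 normalized counts in Str let-7f (median 836). It stood at 612.0, 1336, 825.9, 661.1 and 828.8 in the 2x Str let-7f pools, against 377 to 2272 in vehicle (median 572). Vehicle replicate 8, at the top of that range, stood above every mimic pool, while the other 6 vehicle pools did not exceed 789. Its log2 fold change was 0.40 ± 0.30 in Str let-7f (limma adjusted p = 0.586) and 0.31 ± 0.34 in 2x Str let-7f (limma adjusted p = 0.782). Without that pool it was 0.69 and 0.61, and did not pass either (limma adjusted p = 0.137 and 0.328). Without vehicle replicate 3 it was 0.26 and 0.18, and without 2x Str let-7f replicate 2 it was 0.13 in 2x Str let-7f.

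Sesn1 encodes a sestrin, a stress-induced protein that lowers mTORC1 signalling. It ran from 185 to 365 normalized counts in Str let-7f (median 216), and stood at 236, 234, 282, 356 and 205 in the 2x Str let-7f pools, against 168 to 453 in vehicle (median 214). Every mimic pool lay within the vehicle range. The log2 fold change was 0.02 ± 0.22 in Str let-7f (limma adjusted p = 0.984; interval -0.43 to 0.47) and 0.15 ± 0.25 in 2x Str let-7f (limma adjusted p = 0.873; interval -0.36 to 0.66).

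Doubling the concentration did not change any of the 10 genes in a way that passed the test. With 2x Str let-7f set against the Str let-7f pools 0 of 10 passed (0 at an unadjusted p under 0.05, and 0 under edgeR and DESeq2), where 0.0% of all genes did. The pools of both concentrations overlapped for all 10 genes, and over all genes 0.0531% did not overlap upwards and 0.0265% downwards. The log2 differences ran from -0.08 for Trp53inp1 to 0.42 for Zmat3. For Ccng1 the difference was 0.07 with a 95% interval of -0.21 to 0.36, and for Perp it was 0.02 with an interval of -0.24 to 0.27. For Cdkn1a it was 0.03 (interval -0.39 to 0.46), for Btg2 -0.06 (interval -0.56 to 0.43) and for Phlda3 0.20 (interval -0.35 to 0.74). These intervals do not show that both concentrations acted alike.

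Within a group, single pools stood high or low for several of the 10 genes at once. Str let-7f replicate 5 had the highest level of its group for 8 of the 10 genes, and Str let-7f replicate 10 the lowest for 6. Replicate 5 had 14.0 M reads and replicate 10 had 16.2 M, so neither was among the shallow libraries. Their trophectoderm markers summed to 12190 and 11861 RPM and their primitive endoderm markers to 4216 and 3196 RPM, while the 2-cell stage markers summed to 47.7 and 191 RPM. Among the 2x Str let-7f pools replicate 1 was highest for 5 of the 10 genes and lowest for 3 (Ccng1, Perp and Trp53inp1), and vehicle replicate 8 was lowest for 4 and highest for 2, Trp53inp1 and Sesn1.

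**Figure D3:**
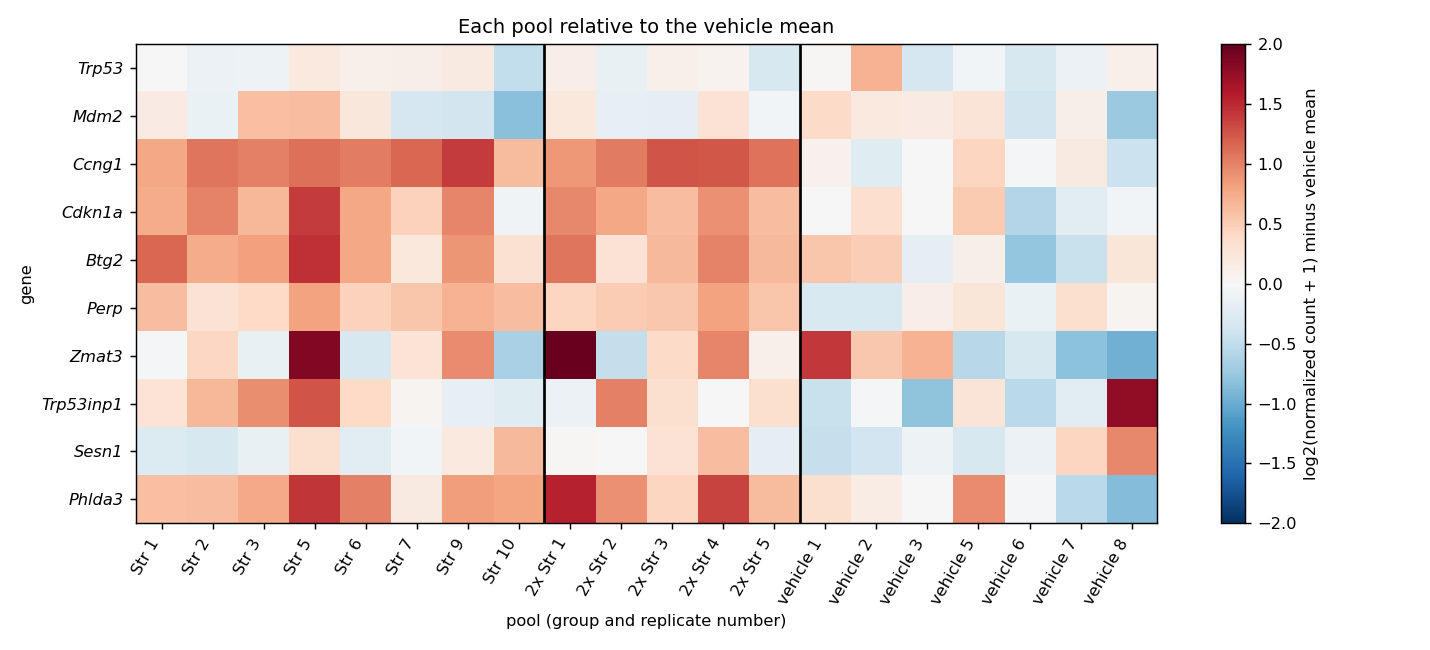
Colour gives log2(normalized count + 1) of each gene (rows) in each pool (columns, group and replicate number) minus the mean of the vehicle pools, from -2 to 2, with values past 2 in the end colour. The Ccng1 row is positive in all 13 mimic pools, and Str let-7f replicate 5 is positive for all 10 genes.

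After each group's mean was taken away, Cdkn1a and Btg2 varied most alike over the 20 libraries (Pearson r = 0.74), followed by Trp53 with Btg2 (0.62), Mdm2 with Cdkn1a (0.62) and Trp53 with Cdkn1a (0.61). Sesn1 ran against Mdm2 (-0.48), and over all 45 pairs the median was 0.23. Ccng1 and Perp, the genes that rose in both mimic groups, correlated with each other at 0.35 and to Trp53 at 0.03 and -0.20. These correlations are descriptions over pools that share size factors and embryo mixture, and with log2 depth the genes correlated between -0.30 and 0.36. By the same measure the genes most like Trp53 were Nkrf (0.76), Crtc3 (0.73) and Otub1 (0.72). Those most like Ccng1 were Smim13 (0.89), Ilf2 (0.86) and Cops9 (0.85), and those most like Cdkn1a were Nt5dc3 (0.81), H3c1 (0.77) and Dnaja4 (0.76).

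Other genes of the pathway were taken from a list of 82, of which 77 were in the table and 75 were tested. In Str let-7f 7 of 75 rose and 0 fell, where 1.84% of all genes rose and 0.796% fell, and the median log2 fold change was 0.16 (-0.02 over all genes). With the doubled concentration 4 of 75 rose and 0 fell, where 1.23% of all genes rose and 0.664% fell, and the median was 0.12 (-0.01 over all genes). The counts by role below are to be read against the same shares, and the list was also chosen with earlier results of these data known. All of the listed genes that rose were p53 targets. Of the 20 tested genes that control p53, 0 passed by limma in either mimic group (3 of 20 had an unadjusted limma p under 0.05 in each, edgeR called 0, DESeq2 called 1 lower in Str let-7f, and their medians were -0.07 and -0.10). Of these, Atr, a kinase that signals replication stress, averaged 629.6 normalized counts in Str let-7f against 927 in vehicle (limma adjusted p = 0.0719), and Trp53bp1, a DNA damage mediator, 1206 against 942 (limma adjusted p = 0.288).

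**Figure D4:**
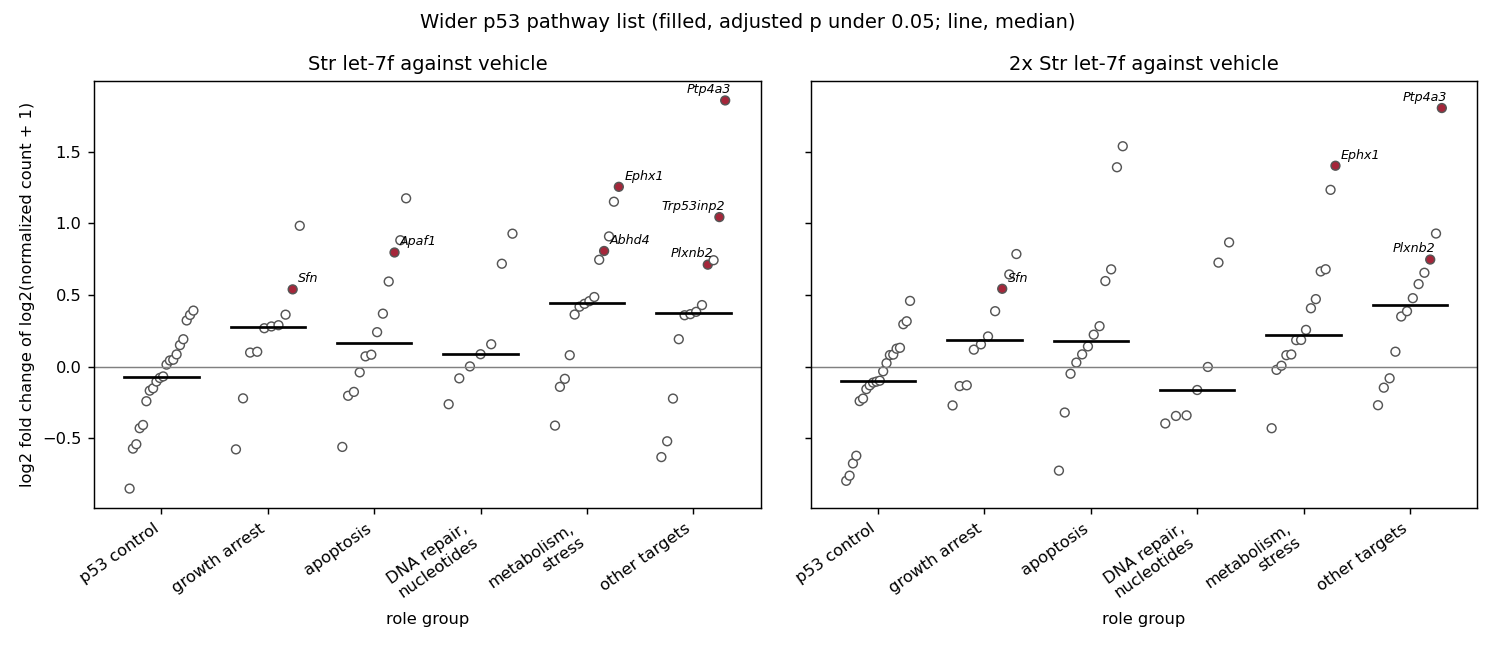
Log2 fold changes on the log2(normalized count + 1) scale (y axis) of the 75 other tested p53 pathway genes by role group (x axis), for Str let-7f against vehicle (left) and 2x Str let-7f against vehicle (right). Each point is a gene, filled where its limma adjusted p was under 0.05, and lines are group medians; 7 points are filled on the left and 4 on the right, all above 0.

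Among growth arrest genes 1 of 10 rose in each mimic group, the epithelial 14-3-3 sigma gene Sfn. It averaged 4772 normalized counts in Str let-7f pools and 4792 in 2x Str let-7f, against 3282 in vehicle, with log2 fold changes of 0.54 ± 0.10 (limma adjusted p = 0.00344) and 0.54 ± 0.11 (limma adjusted p = 0.0135). Without 2x Str let-7f replicate 5 its 2x Str let-7f call was lost (limma adjusted p = 0.0512). The polo-like kinase gene Plk2 averaged 247 in Str let-7f against 123 in vehicle and did not pass (limma adjusted p = 0.0654).

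Among apoptosis genes 1 of 12 rose in Str let-7f (edgeR called 1 and DESeq2 2) and 0 of 12 in 2x Str let-7f (3 of 12 had an unadjusted limma p under 0.05, edgeR called 0 and DESeq2 1). The riser was Apaf1, the scaffold of the apoptosome, at 937 normalized counts in Str let-7f against 549.8 in vehicle (0.80 ± 0.21, limma adjusted p = 0.0388). At the doubled concentration it stood at 0.60 ± 0.24 and did not pass (limma adjusted p = 0.257). The death receptor gene Eda2r did not pass at 1.18 ± 0.37 in Str let-7f (limma adjusted p = 0.0974). The pro-apoptotic BCL2 family genes Bax, Pmaip1 and Bbc3 did not pass either, with Bax at -0.18 ± 0.18, Pmaip1 at -0.56 ± 0.31 and Bbc3 at 0.88 ± 0.53 in Str let-7f. These 3 were named after their values were seen.

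Of 14 metabolic and stress defence targets, 2 rose in Str let-7f pools (edgeR called 2 and DESeq2 3) and 1 in 2x Str let-7f (edgeR and DESeq2 each called 1). The epoxide hydrolase gene Ephx1 averaged 158 normalized counts in Str let-7f pools and 174 in 2x Str let-7f, against 63.7 in vehicle (log2 fold changes of 1.26 ± 0.32 and 1.403 ± 0.37, limma adjusted p = 0.0357 and 0.0476). The lipase gene Abhd4 rose in Str let-7f, at 645 against 371 in vehicle (0.81 ± 0.21, limma adjusted p = 0.0414). The Str let-7f calls of Apaf1, Ephx1 and Abhd4 each failed in 10 of 15 repeats that left out a library, with highest limma adjusted p of 0.0971 without vehicle replicate 2, 0.08 without Str let-7f replicate 6 and 0.102 without vehicle replicate 2. That of Ephx1 in 2x Str let-7f failed in 10 of 12 (highest 0.156, without 2x Str let-7f replicate 3). Of 7 DNA repair and nucleotide supply genes 0 passed in either mimic group (by limma, edgeR or DESeq2; 1 of 7 at an unadjusted limma p under 0.05), with Fancc at 0.93 ± 0.40 and Mgmt at 0.72 ± 0.36 in Str let-7f.

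Among the remaining 12 targets 3 rose in Str let-7f pools (edgeR and DESeq2 each called 3) and 2 in 2x Str let-7f (edgeR called 2 and DESeq2 3). Ptp4a3, a tyrosine phosphatase gene, averaged 266 normalized counts in Str let-7f pools and 280.3 in 2x Str let-7f, against 76.6 in vehicle (1.86 ± 0.31 and 1.81 ± 0.35, limma adjusted p = 0.00114 and 0.00659). Plxnb2, a semaphorin receptor gene, averaged 3054 in Str let-7f pools and 3110 in 2x Str let-7f, against 1866 in vehicle (0.71 ± 0.10 and 0.75 ± 0.12, limma adjusted p = 0.000247 and 0.000757). For both genes every mimic pool lay above every vehicle pool, a separation that 0.617% of all genes showed for Str let-7f and 1.36% for 2x Str let-7f. Trp53inp2, an autophagy gene related to Trp53inp1, rose in Str let-7f, at 629 against 295 in vehicle (1.04 ± 0.23, limma adjusted p = 0.013), and stood at 0.93 ± 0.26 in 2x Str let-7f (limma adjusted p = 0.0698).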

How the data were processed

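The authors deposited a signal table of normalized counts, 1 column per library. Trimmomatic 0.39, kallisto 0.50.1, DESeq2 1.48.2 and build GRCm39 are listed in the submitters' processing notes; the annotation is not given in the sources used here. Every value was a whole multiple of the value of 1 read (tolerance 0.01; 100% of values), so whole reads and depths were recovered. An entry without a gene name (0.0286% to 0.0618% of reads) was left out.

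Log2(normalized count + 1) of 15068 genes (a value of 10 or more in 5 or more libraries) was fitted with limma 3.58.1 (R 4.3.3), 1 mean per group over 20 libraries, trended prior, two-sided, Benjamini-Hochberg over all genes. Fold changes on this scale understate changes of low genes. edgeR 4.0.16 and DESeq2 1.42.0 on recovered reads were alternatives. The labels do not say whether pools came from separate matings or days, and the p-values reflect spread among pools, which may be technical.

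The 10 genes and all lists were chosen with earlier results of these data known. Named genes are the 10, listed genes that passed against vehicle and the 2 with the smallest p per role group in Str let-7f; Bax, Pmaip1 and Bbc3 are named outside this rule. 3′ untranslated regions came from GENCODE M21 (GRCm38).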

Additional observations from a re-analysis of the deposited data

Results flagged for a closer look

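Of 30 sets of values (10 genes in 3 groups), 4 held a pool that stood apart within its group by Dixon's criterion. The criterion was applied to normalized counts and not to their log2 values. Chance alone meets it in about 1 of 20 groups where values are normally distributed, which was not tested here. Zmat3 stood at 1685 normalized counts (2400 reads) in Str let-7f replicate 5, where the next pool had 899, and at 2746 (1373 reads) in 2x Str let-7f replicate 1, where the next had 919. Trp53inp1 stood at 2272 normalized counts (737 reads) in vehicle replicate 8, where the next pool had 789. Trp53 stood at 674 normalized counts (567 reads) in vehicle replicate 2, where the next pool had 444.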

How the results depend on the processing

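The direction of Ccng1, Cdkn1a, Btg2, Perp and Phlda3 against vehicle was upward under every one of the 13 other settings and without any single library; the cause of lost calls was not tested. Members passing in Str let-7f against vehicle numbered 4, and 2 with only the 2 groups compared, 1 in libraries over 5 M reads, 2 without the 2 libraries under 2 M reads (an alternative added after seeing the data) and 2 to 4 without single libraries (2 without vehicle replicate 3, 6, 7 or 8 or Str let-7f replicate 2, 5, 6 or 9). In 2x Str let-7f against vehicle they numbered 2, and 1 under the replicate block, with only the 2 groups compared, in libraries over 5 M reads and without the 2 shallow libraries, 4 under DESeq2 and 1 to 4 without single libraries (4 without vehicle replicate 5, and 1 without 2x Str let-7f replicate 3, 4 or 5). The wider list's 7 calls in Str let-7f became 11 with array weights, 4 over 5 M reads, 11 under DESeq2 and 4 to 8 without single libraries (4 without vehicle replicate 3 or 6 or Str let-7f replicate 3 or 10); its 4 in 2x Str let-7f became 7, 1, 6 under DESeq2, 2 under the replicate block, 2 without shallow libraries and 2 to 5 (2 without 2x Str let-7f replicate 5). All genes passing in Str let-7f (397) became 617 with array weights, 201 over 5 M reads, 767 under DESeq2 and 282 to 459 without single libraries. In 2x Str let-7f (285) they became 647, 68, 620 and 144 to 273 (188 or fewer without vehicle replicate 2 or 3 or 2x Str let-7f replicate 2, 3, 4 or 5), and 185 without shallow libraries. Between both concentrations all genes passing were 1 under edgeR, 10 under DESeq2 and 0 to 1 without single libraries, while members and wider list stayed at 0.

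Replicate numbers are not said to pair pools. Deviations of same-numbered pools correlated weakly and mostly above 0 (r from -0.01 to 0.09), where pools of different number ran from -0.11 to 0.12. Whether same-numbered pools share a batch was not tested. Under the block 5 of 10 members passed in Str let-7f, Trp53inp1 added at limma adjusted p = 0.026, and Perp did not pass in 2x Str let-7f (0.0685).

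Signs turned only for differences that did not pass. In Str let-7f against vehicle, log2 fold changes of Trp53 became 0.017 with array weights and 0.049 under the replicate block. Those of Mdm2 became 0.00199 with a depth covariate, 0.066 under the block, 0.043 without shallow libraries, 0.018 under edgeR and 0.022 under DESeq2. Zmat3 became -0.059 over 5 M reads, and Sesn1 -0.00821 without shallow libraries, -0.024 under edgeR and -0.018 under DESeq2. In 2x Str let-7f against vehicle Mdm2 became -0.16 with array weights, -0.29 under the block, -0.23 over 5 M reads, -0.045 without shallow libraries, -0.029 under edgeR and -0.015 under DESeq2. Between both concentrations Mdm2 became -0.13, -0.36, -0.047, -0.088, -0.047 and -0.037 under the same settings. There Trp53 became 0.013 and Btg2 0.00971 over 5 M reads, Perp -0.022 over 5 M reads and -0.024 without shallow libraries, Phlda3 -0.034 with array weights and -0.036 under the block, and Cdkn1a -0.26 under the block, -0.022 under edgeR and -0.013 under DESeq2.

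Without single libraries, log2 fold changes in Str let-7f against vehicle ran from -0.071 to 0.10 for Trp53, -0.13 to 0.11 for Mdm2 and -0.073 to 0.18 for Sesn1. In 2x Str let-7f against vehicle they ran from -0.090 to 0.084 for Trp53 and -0.10 to 0.087 for Mdm2. Between both concentrations they ran from -0.087 to 0.052 for Trp53, -0.087 to 0.12 for Mdm2, -0.081 to 0.13 for Cdkn1a, -0.15 to 0.046 for Btg2, -0.043 to 0.052 for Perp, -0.046 to 0.71 for Zmat3 and -0.26 to 0.038 for Trp53inp1. Depth limits the shallowest library most, where 1 read was worth 6.33 normalized counts.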
